A study of Mus musculus with 17 samples.

Results

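The 6 genes examined here, Tyr, Tyrp1, Dct, Mitf, Pmel and Mlana, are melanosomal and melanocytic genes that mark the TYR subtype of human atypical teratoid rhabdoid tumor, a childhood brain tumor that lacks SMARCB1. They were taken by name from that human subtype, not by their values in these mice. They are 6 of the 50600 gene identifiers in each count table, and 4 of them (Tyrp1, Dct, Mitf and Pmel) are among the 21494 genes with enough counts to be tested. The question was whether any group of mouse tumors resembled the human TYR subtype in these genes.

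Messenger RNA was sequenced from 14 mouse tumors and 3 healthy mouse brains, all of strain C57BL/6J. The brains were WT and all tumors were SMARCB1 -/-. By title the tumors fall into 4 groups: 3 central nervous system (CNS) tumors of the SHH subtype, 4 CNS tumors of the Myc subtype, 4 extracranial tumors, and 3 syngeneic grafts, which are tumors placed into the flank of mice of matching genetic background. The agent that removed Smarcb1, the ages of the mice, and which tumors or how many gave rise to the grafts are not given in the sources used here. No mouse group carries the label TYR.

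Melanocytes and the pigmented epithelium of the eye make melanin inside melanosomes, organelles related to lysosomes. Tyr encodes tyrosinase, the enzyme of the rate-limiting step, Tyrp1 and Dct encode related enzymes of eumelanin synthesis, Pmel builds the fibrils on which melanin is laid down, and Mlana is a melanosomal membrane protein that assists Pmel. Mitf is the basic helix-loop-helix transcription factor that drives this program in melanocytes, where it binds an extended E-box called the M-box in the promoters of the enzyme genes, but other isoforms of Mitf are made in osteoclasts, mast cells, macrophages and many other cells.

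The promoter sequences were searched for the letters of the M-box. The M-box is already known from the promoters of these enzyme genes, so finding it there is a description and not a test. RefSeq's promoter table for GRCm38.p6 holds 4 of the 6 genes: Tyr, Tyrp1, Dct and Mitf. Pmel and Mlana have no entry. The 250 bases before each start are printed 5′ to 3′ on the gene's strand, and capitals mark CATGTG or its reverse complement CACATG, the core of the M-box, in the 3 enzyme genes.

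Tyr, chr7:87493513-87493762, minus strand: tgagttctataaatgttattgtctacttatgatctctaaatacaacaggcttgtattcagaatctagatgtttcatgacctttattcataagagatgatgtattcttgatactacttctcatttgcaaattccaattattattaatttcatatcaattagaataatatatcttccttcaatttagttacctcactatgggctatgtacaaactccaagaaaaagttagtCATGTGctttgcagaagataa
Tyrp1, chr4:80833963-80834212, plus strand (GENCODE's gene model begins inside this window): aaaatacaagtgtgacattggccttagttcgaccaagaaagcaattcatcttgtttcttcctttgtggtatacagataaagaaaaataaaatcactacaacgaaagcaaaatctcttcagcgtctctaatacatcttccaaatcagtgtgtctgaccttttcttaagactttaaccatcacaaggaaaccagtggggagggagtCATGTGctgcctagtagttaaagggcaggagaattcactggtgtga
Dct, chr14:118052247-118052496, minus strand: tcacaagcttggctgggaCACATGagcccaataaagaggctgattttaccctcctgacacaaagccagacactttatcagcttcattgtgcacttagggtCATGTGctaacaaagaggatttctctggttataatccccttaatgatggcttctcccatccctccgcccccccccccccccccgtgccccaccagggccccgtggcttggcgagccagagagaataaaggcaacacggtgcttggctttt

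The full M-box letters TCATGTGCT, searched on both strands, stood at 1 place in each of the 3 promoters, with the first base 22 bases before the start in Tyr, 47 in Tyrp1 and 151 in Dct. Of 32817 promoter windows of 300 bases in the table, 0.408% hold TCATGTGCT, and 14.2% hold the shorter CATGTG that it contains. The Dct promoter held CATGTG at 2 places. Mitf has 3 windows in the table and none held CATGTG. The most downstream, which lies inside the longer Mitf transcripts, held TGACGTCA, the cAMP response element, with its first base 153 bases before the start (capitals). Of all windows 1.79% hold TGACGTCA.

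Mitf, the most downstream of 3 windows, chr6:97991533-97991782, plus strand: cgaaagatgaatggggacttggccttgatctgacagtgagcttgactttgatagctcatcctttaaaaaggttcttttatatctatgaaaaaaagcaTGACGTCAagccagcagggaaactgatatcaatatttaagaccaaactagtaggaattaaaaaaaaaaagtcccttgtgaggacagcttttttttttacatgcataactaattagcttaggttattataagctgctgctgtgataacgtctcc

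A match of letters is a description of the promoter, not evidence of binding. Counts were per gene, so the 8 annotated transcripts of Mitf, including that of melanocytes, cannot be told apart here.

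Total counts ran from 18685672 to 130835711 per library, deepest in the brains (103095016 to 130835711). The labels do not say whether libraries of 1 group came from separate litters or cultures, so the p-values below measure only the spread between these libraries. The deleted gene was low in every tumor: Smarcb1 was at 119 to 132 counts scaled to library size (CPM) in the brains and at 2.52 to 33.3 CPM in the tumors. Gli2, an effector of hedgehog signaling, averaged 64.4 CPM in the SHH tumors against 11 in brain, a difference that did not pass (adjusted p = 0.309). Of 7 genes listed as keys of the labelled groups, 2 were called higher and 1 lower in SHH tumors than in brain. Of all genes, 2.44% were called higher and 1.94% lower there. Myc averaged 127 CPM in the Myc tumors, 135 in extracranial tumors and 139.7 in grafts against 26.4 in brain, and rose in all 3 groups. Summed CPM of 10 neuronal markers was 5338 to 5988 in the brains and 463 to 3957 in the SHH tumors. An earlier analysis of these data found transcripts of other tissue in 5 libraries: Healthy brain 1, SHH tumor 1, Myc tumor 1 and Extracranial tumors 1 and 2. Values without these 5 libraries are given for calls against brain or SHH tumors that they change, but not for every gene of the lists. For the gene lists this omission was chosen after the data were seen.

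Tyr, Tyrp1, Dct and Mlana were at most at 1.24 CPM in any of the 14 tumors. Tyrp1 and Dct did not rise over healthy brain in any tumor group, and both were lower in the Myc tumors, extracranial tumors and grafts. Tyr and Mlana had too few counts for the main test, and mean Mlana was 0.0268 to 0.0647 CPM in the tumor groups against 0.0053 in brain. Pmel was at most at 1.77 CPM in a tumor, while Mitf reached 83.8 CPM. Mitf rose 11.7-fold in extracranial tumors and 10.1-fold in grafts over brain (ratios of mean CPM).

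Against healthy brain, edgeR's quasi-likelihood test with Benjamini-Hochberg adjustment over all 21494 genes called none of the 4 tested genes in SHH tumors, where it called 2.44% of all genes higher and 1.94% lower. None of the 4 had an unadjusted p under 0.05 there, DESeq2 also called 0, and limma voom called 2 (Tyrp1 and Dct, lower). In Myc tumors 0 were called higher and 2 lower, beside 25.3% and 26.8% of all genes. In extracranial tumors 1 was higher and 2 were lower, beside 26.1% and 26.1% of all genes, and in grafts 2 were higher and 2 lower, beside 24.9% and 30.4%. In the last 3 comparisons the background is so high that the count of members called says little, and the description rests on the members' values.

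**Figure D1:**
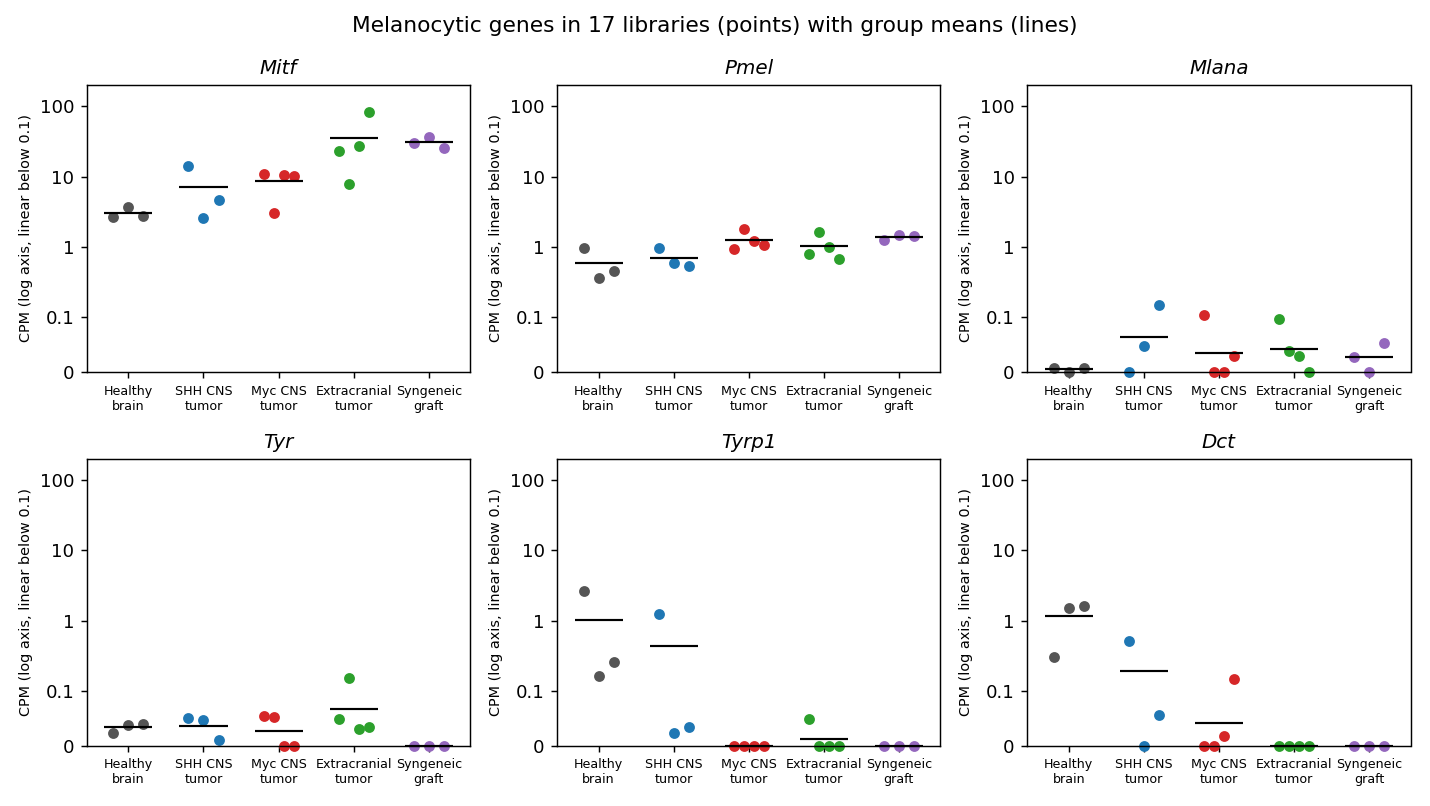
CPM of the 6 melanocytic genes in each of the 17 libraries (points, coloured by group) with the group mean (line), on an axis that is logarithmic above 0.1 CPM and linear below. Mitf is highest in extracranial tumors and grafts, Pmel lies between 0.359 and 1.77 CPM throughout, and Tyrp1 and Dct are at 0 in most libraries of the Myc, extracranial and graft groups.

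Mitf (chromosome 6, 97807052 to 98021349, plus strand, GRCm38) was at 2.69, 3.66 and 2.70 CPM in the 3 healthy brains. The SHH tumors held 14.0, 2.56 and 4.62 CPM, and the 4 Myc tumors 11, 3.02, 10.4 and 10.3 CPM. The extracranial tumors held 23.2, 7.73, 27.0 and 83.8 CPM, and the grafts 29.8, 36.0 and 25.8 CPM. Every extracranial tumor and every graft was above every brain, while the SHH and Myc ranges overlapped the brain's. The mean was 35.4 ± 33.3 CPM in extracranial tumors (SD, n = 4), 30.5 ± 5.16 in grafts (n = 3), 8.69 ± 3.79 in the Myc group (n = 4), 7.05 ± 6.08 in the SHH group (n = 3) and 3.02 ± 0.555 in brain (n = 3).

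In edgeR, Mitf rose over brain in extracranial tumors (log2 fold change 3.55 ± 0.79 SE, adjusted p = 0.00202) and in grafts (3.34 ± 0.80, adjusted p = 0.00307). Both calls held in each of the 17 fits that left out 1 library and under every other setting tried that included both groups. Extracranial tumor 4 carried much of the first: without it the log2 fold change was 2.64 (adjusted p = 0.00492), and with limma voom's quality weights it was 2.78. Without the 5 libraries with transcripts of other tissue it was 4.13 (adjusted p = 0.00361). Only Extracranial tumors 3 and 4 were then left in that group, so this value rests more on Extracranial tumor 4. The differences of 1.53 ± 0.72 in Myc tumors (adjusted p = 0.0871) and 1.22 ± 0.74 in SHH tumors (adjusted p = 0.360) did not pass. The Myc difference passed in limma voom (0.0182) and with only the compared groups in the fit (0.0340). In bulk RNA, a change in the share of a cell type and a change in RNA per cell cannot be told apart.

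Among the tumor groups, Mitf was higher in extracranial than in SHH tumors (2.33 ± 0.74, adjusted p = 0.0235), the only member called there, beside 18.6% of all genes called higher and 19.7% lower. SHH tumor 1, at 14.0 CPM, was above Extracranial tumor 2, at 7.73 CPM. The call was lost without SHH tumor 2 (adjusted p = 0.0904), SHH tumor 3 (0.0815) or Extracranial tumor 4 (0.1), and with only the compared groups in the fit (0.118). Without SHH tumor 1 the log2 fold change was 3.29, and without the 5 libraries 3.92. The latter fit keeps only Extracranial tumors 3 and 4 and SHH tumors 2 and 3 of these groups.

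Grafts were also higher than SHH tumors in Mitf (2.12 ± 0.76, adjusted p = 0.0347), and the libraries of these groups did not overlap. In that comparison 1 member was higher and 2 were lower, beside 20.4% and 25.8% of all genes. The Mitf call was lost without SHH tumor 2 (0.116), SHH tumor 3 (0.105), or graft 1 (0.0705), 2 (0.0888) or 3 (0.0526), and without a filter on low counts (0.0509). Without SHH tumor 1 the difference was 3.08, and with limma voom 3.20.

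Between the Myc tumors, extracranial tumors and grafts no member was called by edgeR. The shares of all genes called higher and lower were 0.00% and 0.0186% for extracranial against Myc tumors, 3.12% and 2.88% for grafts against Myc tumors, and 2.16% and 2.62% for grafts against extracranial tumors. Mitf had an unadjusted p under 0.05 in both comparisons with Myc tumors: 2.03 ± 0.66 for extracranial tumors (adjusted p = 0.179, 0.0393 in DESeq2) and 1.81 ± 0.69 for grafts (adjusted p = 0.117, 0.0374 in limma voom, 0.0484 with only the compared groups). For grafts against extracranial tumors no member had an unadjusted p under 0.05, and neither DESeq2 nor limma voom called any. In the order brain, SHH, Myc, graft, extracranial, no 2 neighbouring groups therefore differed in Mitf by the main test.

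Mitf belongs to a family of 4 transcription factors that bind the same sites, and the other members, Tfe3, Tfeb and Tfec, are best known for controlling lysosomal genes and for roles in macrophages. All 3 rose over brain in Myc tumors, extracranial tumors and grafts, beside 25.3%, 26.1% and 24.9% of all genes. All 3 also rose over the SHH tumors in those groups, beside 19.0%, 18.6% and 20.4% of all genes. None was called between SHH tumors and brain, or among the Myc tumors, extracranial tumors and grafts. All of these rises over brain and over SHH tumors passed without the 5 libraries too. The median of their log2 fold changes over brain was 2.85, 3.38 and 3.35 in the 3 groups, beside medians over all tested genes of -0.01, 0.05 and -0.16.

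Tfe3 had means of 34.7 ± 5.36 CPM in brain, 49.7 ± 6.66 in SHH tumors, 118 ± 12.1 in Myc tumors, 126 ± 24.1 in extracranial tumors and 135 ± 2.42 in grafts. Its log2 fold change over brain in grafts was 1.96 ± 0.19 (adjusted p = 3.92e-06). Tfeb averaged 2.73 ± 1.36, 7.35 ± 6.26, 19.7 ± 6.15, 28.6 ± 5.66 and 27.8 ± 2.17 CPM in the same order of groups. Tfec, best known from macrophages and osteoclasts, was at 0.252 ± 0.192 CPM in brain and 0.284 ± 0.108 in SHH tumors, against 9.73 ± 10.7 in Myc tumors, 8.92 ± 9.33 in extracranial tumors and 19.99 ± 5.62 in grafts. Tfe3, Tfeb and Tfec were thus already high in the Myc tumors, where Mitf itself did not pass the test against brain. The difference in behaviour between Mitf and its relatives was not tested.

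**Figure D2:**
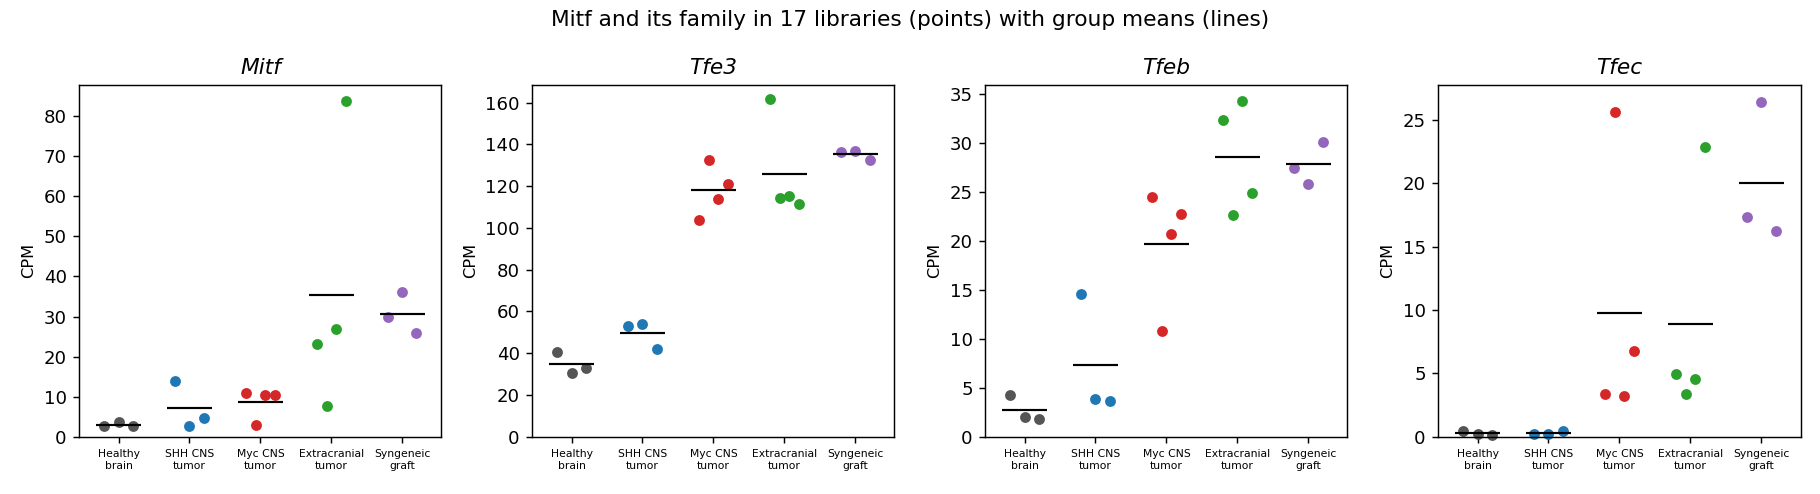
CPM of Mitf and its relatives Tfe3, Tfeb and Tfec in each library (points) with group means (lines), each gene on its own linear axis. Tfe3, Tfeb and Tfec step up between the SHH and Myc groups, whereas Mitf means are 8.69 CPM in Myc tumors and 30.5 CPM or more in extracranial tumors and grafts.

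Markers of macrophages and osteoclasts, cells that express Mitf and Tfec, were set beside the Mitf values. Of 10 such genes, 2 rose over brain in SHH tumors, 7 in Myc tumors, 10 in extracranial tumors and 7 in grafts, beside 2.44%, 25.3%, 26.1% and 24.9% of all genes, and none fell. Without the 5 libraries with transcripts of other tissue, 2, 7, 9 and 9 rose, beside 1.54%, 21.2%, 19.4% and 22.1% of all genes. Their summed CPM was highest in extracranial tumors (1847 to 18989), then in grafts (4563 to 8428) and Myc tumors (1150 to 3803), and lower in SHH tumors (203 to 386) and brains (59.3 to 179). None of the 10 was without counts in any group. Extracranial tumor 4 and Myc tumor 1 were highest of their groups in both this sum and Mitf. Extracranial tumor 3, however, had the lowest sum of its group (1847 CPM) but more Mitf than Extracranial tumors 1 and 2. In the brains, SHH tumors and grafts the library highest in the sum was not highest in Mitf.

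Extracranial tumor 4, with the highest Mitf, held 8031 CPM of Ctsk (cathepsin K) and 7396 CPM of Acp5 (tartrate-resistant acid phosphatase), enzymes of bone-resorbing osteoclasts, and 945 CPM of Atp6v0d2. In Extracranial tumor 1, Ctsk was at 382 CPM and Mitf at 23.2 CPM. Across the 17 libraries, which share groups and differ in depth, Pearson's r between log2(CPM + 1) of Mitf and of Csf1r, the macrophage growth factor receptor, was 0.84. Between Mitf and Tfec it was 0.68. Mast cells also express Mitf. The summed CPM of 8 mast cell genes was 2.10 to 8.60 in brains, 0.588 to 3.84 in the SHH group, 0.0340 to 4.34 in the extracranial group and 1.42 to 1.97 in grafts. It reached 101 CPM in Myc tumor 3 and 20.3 CPM in Myc tumor 2, the Myc tumor with the lowest Mitf, and was 4.81 and 1.75 CPM in the other 2. The part of these cells in the Mitf result was not tested.

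**Figure D3:**
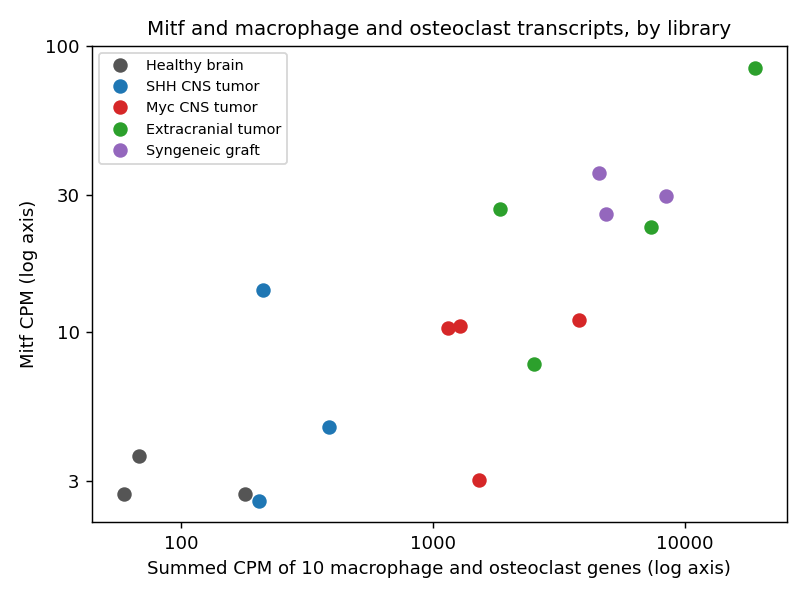
Mitf CPM against the summed CPM of 10 macrophage and osteoclast genes, both on log axes, 1 point per library. Brains lie at the lower left and Extracranial tumor 4 (18989 and 83.8 CPM) at the upper right. The extracranial tumors and grafts, all at 1847 CPM of markers or more, hold 7.73 to 83.8 CPM of Mitf.

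Pmel (chromosome 10, 128704195 to 128720238, plus strand), the melanosomal fibril protein, was low in all groups. The brains held 0.953, 0.359 and 0.453 CPM, the SHH tumors 0.979, 0.588 and 0.543, and the Myc tumors 0.929, 1.77, 1.21 and 1.06. The extracranial tumors held 0.780, 1.62, 0.984 and 0.680 CPM and the grafts 1.24, 1.47 and 1.43. Only the grafts lay wholly above the brains. In edgeR, Pmel rose 2.35-fold over brain in grafts (log2 fold change 1.23 ± 0.47, adjusted p = 0.0391), and was not called in Myc tumors (1.07 ± 0.45, adjusted p = 0.0580), extracranial tumors (0.79 ± 0.45, 0.150) or SHH tumors (0.25 ± 0.47, 0.792).

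The graft call for Pmel was near the threshold. It was lost without Healthy brain 2 (adjusted p = 0.142), Healthy brain 3 (0.129), or graft 1 (0.0664), 2 (0.0934) or 3 (0.0797), with DESeq2-type (RLE) size factors in edgeR (0.0507), and without a filter on low counts (0.115). The fit with the replicate number as a block did not call it either. Without Healthy brain 1, Pmel passed in Myc tumors (1.6, 0.0161) and extracranial tumors (1.32, 0.0371). Without the 5 libraries it passed in Myc tumors (1.72, 0.0118) and in grafts against SHH tumors (1.23, 0.0479). In the order brain, SHH, extracranial, Myc, graft (means 0.588, 0.703, 1.01, 1.24 and 1.38 CPM), no 2 neighbouring groups differed by the test. Pmel also shares 105 of its 2292 exonic bases with Dgka and 34 with Cdk2, which lie on the other strand. Cdk2 rose from 12.9 to 25.7 CPM in the brains to 83.4 to 87.4 CPM in the grafts. Dgka, at 13.8 ± 1.11 CPM in brain and 22.2 ± 3.86 in grafts, was not called in grafts (adjusted p = 0.202) and rose to 81.0 ± 47.0 CPM in extracranial tumors (adjusted p = 0.000407), where Pmel was not called. Over the 17 libraries Pearson's r with Pmel was 0.62 for Cdk2 and 0.18 for Dgka. The library kit keeps strand, but the strand setting of the counting is not stated in the labels or processing notes, and the part of reads from these neighbours in the Pmel value was not tested.

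Tyrp1 and Dct, the eumelanin enzymes, were the only melanin enzyme genes with more than 10 counts in any library, and they were highest in healthy brain. Tyrp1 (chromosome 4, 80834123 to 80851719, plus strand) had 331, 17 and 32 counts in the brains (2.63, 0.165 and 0.255 CPM) and 48, 1 and 3 in the SHH tumors (1.24, 0.0235 and 0.0340 CPM). It had 0 counts in all 4 Myc tumors and all 3 grafts, and 1 count in the 4 extracranial tumors together. Healthy brain 1 and SHH tumor 1 thus carried nearly all of the Tyrp1 reads.

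Dct (chromosome 14, 118012790 to 118052244, minus strand) had 38, 158 and 205 counts in the brains (0.302, 1.53 and 1.63 CPM), 20, 0 and 5 in the SHH tumors and 0, 0, 2 and 10 in the Myc tumors. It had 0 counts in all extracranial tumors and all grafts. In contrast to Tyrp1, it was lowest of the brains in Healthy brain 1, so different brain libraries carried the 2 genes.

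In edgeR both genes fell against brain in 3 tumor groups. Tyrp1 was at least 74.1-fold lower in Myc tumors (adjusted p = 0.0111) and at least 62.8-fold lower in grafts (adjusted p = 0.0146), where the bound sets 3 counts over the whole group against the brain mean. In extracranial tumors its 1 count, against 380 in brain, made it lower by a depth-adjusted ratio of 144 (95% interval 25.8 to 5720, counting error only, adjusted p = 0.0208). Dct was 27.7-fold lower in Myc tumors by mean CPM (log2 fold change -4.40 ± 1.40, adjusted p = 0.0255), at least 51.9-fold lower in extracranial tumors (adjusted p = 0.00647) and at least 71.5-fold lower in grafts (adjusted p = 0.00718). In SHH tumors neither passed (Tyrp1 -1.27 ± 1.5, adjusted p = 0.665, and Dct -2.64 ± 1.40, adjusted p = 0.310).

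The sizes of these differences rested on single libraries. Healthy brain 1 held 331 of the 380 Tyrp1 counts in brain. Without it the Tyrp1 bounds were 15.3-fold in Myc tumors and 13.0-fold in grafts, and the ratio in extracranial tumors was 28.9 (95% interval 4.95 to 1164, counting error only). The highest Tyrp1 bounds, without Healthy brain 2, were 105-fold and 89.2-fold. Of the 12 Dct counts in Myc tumors 10 were in Myc tumor 4, without which the depth-adjusted ratio was 85.9 (95% interval 23.6 to 712, counting error only). Omission of 1 library moved the Dct bound between 32.1-fold (Extracranial tumor 2) and 71.1-fold (Healthy brain 1) in extracranial tumors, and between 34.6-fold (graft 3) and 97.9-fold (Healthy brain 1) in grafts.

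Some of the calls rested on single libraries too. Tyrp1 in extracranial tumors was lost without Healthy brain 1 (adjusted p = 0.0938), Extracranial tumor 1 (0.0527) or Extracranial tumor 2 (0.0536). Dct in Myc tumors was lost without Healthy brain 2 (0.0627), Healthy brain 3 (0.0670), or Myc tumor 1 (0.0545), 2 (0.0528) or 3 (0.0654). The Tyrp1 calls in Myc tumors and grafts and the Dct calls in extracranial tumors and grafts held in all 17 fits that left out 1 library. With only the libraries whose deposited files carry numbers of the same series, the Myc calls were lost (Tyrp1 0.0594, Dct 0.116). Without Healthy brain 1 and SHH tumor 1 together, Tyrp1 had too few counts to be tested.

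Against SHH tumors, Tyrp1 was called lower in Myc tumors (adjusted p = 0.0299), the only member called there, beside 19.0% of all genes called higher and 21.9% lower. It was at least 31.5-fold lower by mean CPM, but without SHH tumor 1, the library with 48 of the 52 counts, the bound was 2.10-fold and the adjusted p 0.182. It was also lost without Myc tumor 3 (0.0650), Myc tumor 4 (0.0557) or Extracranial tumor 1 (0.0634), without the 5 libraries (0.0715), and in limma voom (0.159). In grafts Tyrp1 (at least 26.7-fold, 0.0346) and Dct (at least 11.8-fold, 0.0435) were called lower. Without SHH tumor 1 the bounds were 1.78-fold and 1.75-fold and the adjusted p 0.191 and 0.167. For grafts, removing any 1 of the 3 graft libraries also ended both calls (highest adjusted p 0.0883 for Tyrp1 and 0.109 for Dct), as did removing Extracranial tumor 1 for Tyrp1 (0.0705) and Healthy brain 2 (0.0584), Healthy brain 3 (0.0575) or Myc tumor 3 (0.0504) for Dct. The Tyrp1 call was also lost without the 5 libraries (0.0597). The Dct call was also lost without those 5 (0.156), without Healthy brain 1 and SHH tumor 1 (0.157), in limma voom (0.288), with the replicate number as a block (0.0882) and without a filter on low counts (0.0505). In extracranial tumors neither passed (Tyrp1 0.0654, Dct 0.0558).

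Marker sums of tissues that can hold or adjoin pigment cells were set beside the Tyrp1 and Dct values. Summed CPM of 10 fibroblast and meningeal markers was 4164 in Healthy brain 1 against 936 and 664 in the other brains, and 788 in SHH tumor 1 against 514 and 732 in the other SHH tumors. It ran from 4523 to 16147 CPM among Myc tumors, from 5602 to 11542 among extracranial ones and from 2220 to 2547 among grafts. This sum does not separate meninges from other fibroblasts. Summed choroid plexus markers stood at 795, 421 and 75.8 CPM in the 3 brains and 1924, 104 and 206 CPM in the 3 SHH tumors, and they ranged over 225 to 403 CPM in grafts, 18.0 to 84.1 in extracranial tumors and 5.08 to 79.2 in Myc tumors. The grafts lay inside the range of the brains in this sum. By single genes, however, 7 of the 9 markers were called lower in grafts than in brain, and 2, Slc4a5 and Aqp1, higher. The shares of all genes there were 30.4% lower and 24.9% higher. These counts of markers were the same without the 5 libraries, beside 29.0% and 22.1% of all genes. Kl had no counts in grafts. Skin keratinocyte and hair follicle markers summed to between 18.2 and 24.3 CPM in the brains and between 6.49 and 10.5 in the SHH group. They lay at 1.35 to 1.53 CPM in grafts, 3.02 to 4.71 in extracranial tumors and 2.14 to 35.2 in the Myc group. The 9 retinal pigment epithelium markers, of which Ttr and Otx2 are also on the choroid plexus list, summed to 746, 416 and 96.1 CPM in the brains and 1794, 99.5 and 210 in the SHH tumors. The range was 3.60 to 13.5 CPM for the Myc group, 7.07 to 39.7 for the extracranial group and 8.07 to 12.3 for grafts. Of the defining genes of that epithelium, the retinoid isomerase Rpe65 had no counts in Myc tumors and grafts and a mean of at most 0.0492 CPM in any group, and the opsin Rgr had none in extracranial tumors and grafts and a mean of at most 0.0497 CPM. Best1, of the same list, was called higher in extracranial tumors than in brain, a call lost without the 5 libraries. It was also higher than in SHH tumors, a call kept without them. Of the 7 markers tested, 1 rose and 5 fell against brain there, beside 26.1% and 26.1% of all genes. Against SHH tumors 1 rose and 3 fell, beside 18.6% and 19.7%. The part of these tissues in the Tyrp1 and Dct values was not tested.

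Tyr (chromosome 7, 87424771 to 87493512, minus strand), the gene for which the human subtype is named, had 3, 4 and 5 counts in the brains and 2, 2 and 1 in the SHH tumors. The Myc tumors had 1, 1, 0 and 0 counts, the extracranial tumors 1, 8, 1 and 1, and the grafts none. The highest level was 0.156 CPM, in Extracranial tumor 2. Mean levels were 0.0341 ± 0.00895 CPM in brain, 0.0366 ± 0.0220 in SHH tumors, 0.0267 ± 0.0309 in Myc tumors and 0.0671 ± 0.0596 in extracranial tumors, ranges that overlap. The 0 counts in grafts allow up to 0.0162 CPM (3 counts over the group, counting error only).

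Mlana (chromosome 19, 29697824 to 29708634, plus strand) had 1, 0 and 1 counts in the brains, 0, 2 and 13 in the SHH tumors, 2, 0, 0 and 2 in the Myc tumors, 2, 2, 1 and 0 in the extracranial tumors and 1, 0 and 5 in the grafts. SHH tumor 3 was highest at 0.147 CPM, and each group overlapped the others. Against the 2 counts in brain, the depth-adjusted ratio was 15.7 in SHH tumors (95% interval 3.65 to 141, counting error only), 3.24 in Myc tumors (0.464 to 35.8), 6.58 in extracranial tumors (1.08 to 69.1) and 5.73 in grafts (1.03 to 58.1).

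Tyr and Mlana failed the filter on low counts. When every gene with a count was kept in edgeR, 1 difference in these 2 genes passed over the 10 comparisons: Tyr was lower in grafts than in brain, by at least 2.11-fold (adjusted p = 0.0468). Mlana in SHH tumors against brain had an adjusted p of 0.256, and Tyr in grafts against extracranial tumors 0.0971. Differences in these 2 genes are mostly not detectable at this depth.

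Compared per length, to set the genes beside each other, Mitf was the most abundant of the 6 in every group. Its mean rose from 0.487 CPM per kilobase of exon in brain to 5.72 in extracranial tumors, where 62.6% of tested genes were lower, and 4.92 in grafts, where 61.0% were lower. Pmel lay between 0.257 CPM per kilobase in brain and 0.602 in grafts, above 20.1% to 35.4% of tested genes. Tyrp1 in brain, at 0.359, was above 23.7%, and Tyr never exceeded 0.00944 CPM per kilobase, above 4%, in any group mean. The order Mitf, Pmel and then the enzymes and Mlana held in each tumor group, and in brain Tyrp1 stood between Mitf and Pmel.

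Genes of the wider set of melanosome and pigmentation genes were called in both directions, at shares near those of all genes in Myc tumors. Of 28 such genes, chosen for known roles in pigment transport, melanosome formation or the related lysosome disorders, 26 were tested. Against brain, 0 rose and 1 fell in SHH tumors (Bloc1s6), 7 rose and 6 fell in Myc tumors, 8 rose and 4 fell in extracranial tumors, and 8 rose and 4 fell in grafts. That is 26.9% higher and 23.1% lower in Myc tumors, beside 25.3% and 26.8% of all genes, and 30.8% and 15.4% in the other 2 groups, beside 26.1% and 26.1% for extracranial tumors and 24.9% and 30.4% for grafts. When the 5 libraries were left out, 6 rose and 5 fell in Myc tumors, 7 rose and 2 fell in extracranial tumors, 8 rose and 3 fell in grafts, and Bloc1s6 was not called in SHH tumors (adjusted p = 0.206). In that fit 27 of the 28 were tested. Of all genes, 21.2% rose and 23.9% fell in Myc tumors there, 19.4% and 20.3% in extracranial tumors, and 22.1% and 29.0% in grafts. With all libraries, the median log2 fold changes of the 26 were 0.39, 0.14, 0.23 and 0.44, beside -0.02, -0.01, 0.05 and -0.16 over all tested genes. Against SHH tumors, 6 rose and 6 fell in Myc tumors, 5 and 2 in extracranial tumors and 8 and 5 in grafts, beside 19.0% and 21.9%, 18.6% and 19.7%, and 20.4% and 25.8% of all genes. With the 5 libraries left out, these counts were 5 and 2, 3 and 2, and 7 and 3. The shares of all genes were then also smaller, at 12.4% and 15.7%, 8.98% and 11.1%, and 16.1% and 22.5%. With all libraries none of the 26 was called among the last 3 groups.

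Cd63, Rab32, Tpcn2, Ap3b1 and Hps6 rose over brain in the Myc tumors, extracranial tumors and grafts, and act in lysosomes and related organelles of many cell types as well as in melanosomes. Cd63, a tetraspanin of lysosomes and melanosomes, went from 43.5 ± 16.6 CPM in brain to 579 ± 142 in Myc tumors, 511 ± 314 in extracranial tumors and 485 ± 91.5 in grafts. Rab32, a small GTPase that sends cargo to melanosomes and other lysosome-related organelles, went from 1.70 ± 0.372 CPM to 69.3 ± 37.4, 97.3 ± 95.7 and 61.5 ± 17.8. Tpcn2, a channel of lysosomes and melanosomes, went from 5.94 ± 1.37 CPM to 39.0 ± 17.6, 46.8 ± 12.4 and 70.0 ± 13.5. Ap3b1 and Hps6, subunits of complexes that sort cargo to these organelles, rose in the same 3 groups.

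Rab38, a relative of Rab32 with a like role in melanosomes, rose in Myc tumors (4.78 ± 5.33 CPM against 0.437 ± 0.0760, adjusted p = 0.0177) and extracranial tumors (20.1 ± 22.0, adjusted p = 0.00199). Extracranial tumors 2 and 4 held 29.3 and 46.8 CPM of Rab38 and the other 2 held 2.34 and 1.82. The Myc call was lost without the 5 libraries (adjusted p = 0.0983). Gpnmb, a glycoprotein of melanosomes that macrophages and osteoclasts also make, rose in extracranial tumors (18.8 ± 28.1 CPM against 1.54 ± 1.16, adjusted p = 0.0444), where Extracranial tumor 4 held 60.8 CPM. Without the 5 libraries Gpnmb was also called higher in Myc tumors and grafts.

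Oca2, Slc24a5 and Myo5a fell against brain in Myc tumors. Oca2, an anion channel of the melanosome, was at 0.704 ± 0.321 CPM in brain, had 0 counts in the 4 Myc tumors and averaged 0.00696 ± 0.0121 CPM in grafts. It fell in both (adjusted p = 0.0107 and 0.0263). Slc24a5, a melanosomal ion exchanger, fell in Myc tumors (adjusted p = 0.0205) and averaged 0.650 ± 1.13 CPM in extracranial tumors, where Extracranial tumor 4 held 2.35 CPM and the other 3 at most 0.119. Slc45a2, a melanosomal transporter, averaged at most 0.210 CPM in any group, and Gpr143, a receptor of pigment cells, at most 0.142. Myo5a, the motor that carries melanosomes and, in neurons, other vesicles, fell from 320 ± 14.8 CPM in brain to 124 ± 26.2 in Myc tumors. It was also called lower in extracranial tumors and grafts, calls that were lost without the 5 libraries. Oca2, Slc45a2, Gpr143, Myo5a and Gpnmb, and Rpe65 and Rgr above, were named after their values were seen.

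**Figure D4:**
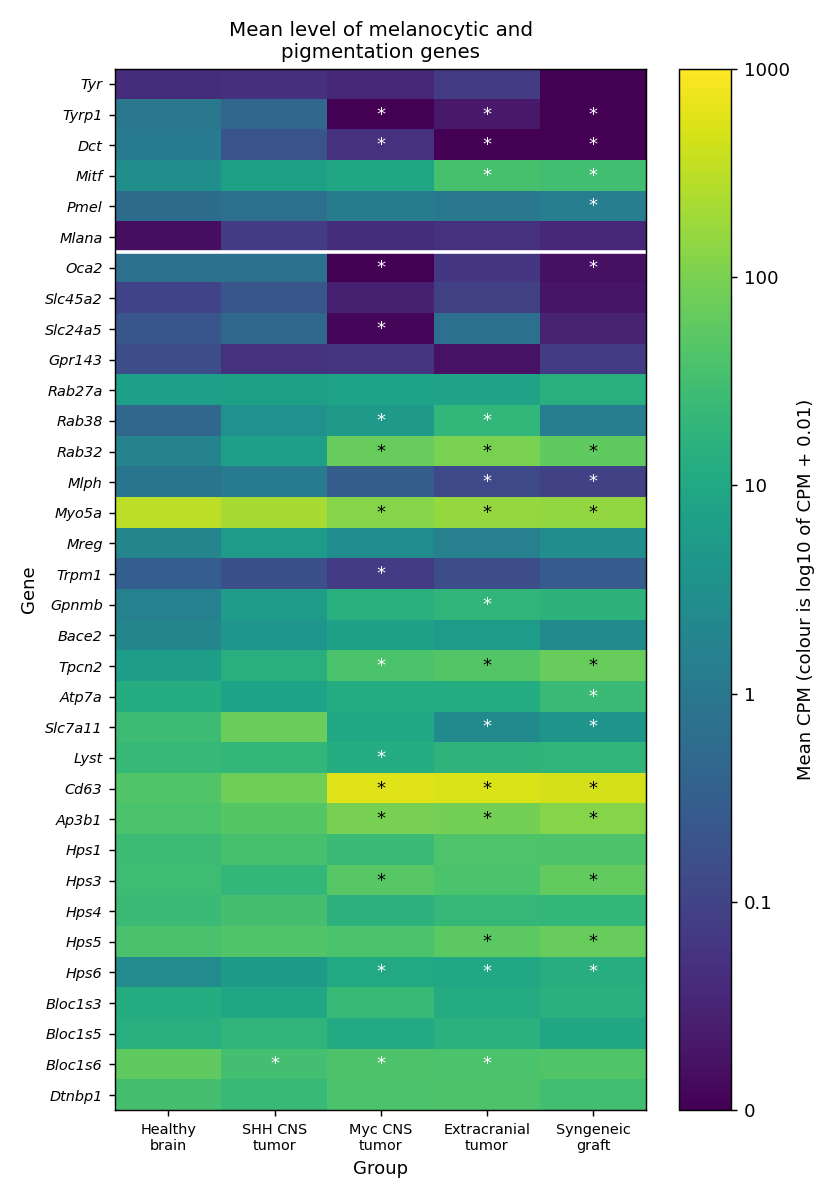
Mean CPM of the 6 melanocytic genes (above the white line) and the 28 melanosome and pigmentation genes (below it) in the 5 groups, coloured on a log scale of CPM + 0.01. Asterisks mark edgeR calls against healthy brain at adjusted p under 0.05, in either direction. Cd63, Rab32, Tpcn2, Ap3b1 and Hps6 are called higher in all 3 of the Myc, extracranial and graft columns, and Tyrp1, Dct and Myo5a are called lower in all 3. The Myo5a calls in the extracranial and graft columns were lost without the 5 libraries with transcripts of other tissue.

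Regulators of the melanocyte lineage were called in both directions. Of 16 genes, 15 were tested. Against brain none was called in SHH tumors, 1 rose and 6 fell in Myc tumors, 2 rose and 5 fell in extracranial tumors, and 1 rose and 5 fell in grafts. The shares lower, 40% in Myc tumors and 33.3% in the other 2, stand beside 26.8%, 26.1% and 30.4% of all genes, and the shares higher, 6.67%, 13.3% and 6.67%, beside 25.3%, 26.1% and 24.9%. In the fit without the 5 libraries, 0 rose and 6 fell in Myc tumors, 1 rose and 3 fell in extracranial tumors, and 1 rose and 4 fell in grafts. Of all genes, 21.2% rose and 23.9% fell in Myc tumors in that fit, 19.4% and 20.3% in extracranial tumors, and 22.1% and 29.0% in grafts. With all libraries the fallen genes were Ednrb, Kit, Kitl, Edn3, Tfap2b and Zeb2 in Myc tumors. They were Ednrb, Pax3, Sox10, Pomc and Tfap2b in extracranial tumors, and Tfap2b, Edn3, Sox10, Pomc and Sox9 in grafts. Pomc, which encodes the melanocortin precursor, was lost without the 5 libraries in extracranial tumors (log2 fold change -6.45 with all libraries and -0.70 without the 5) and grafts (-6.20 and -0.28), as were Tfap2b in extracranial tumors (adjusted p = 0.118) and Sox9 in grafts (0.0860). With all libraries, the median log2 fold changes over the 15 regulators were -1.55, -0.68 and -1.99 in these groups. Sox10, the neural crest factor that switches on Mitf in melanoblasts, was at 9.38 ± 0.420 CPM in brain and had 0 counts in all 4 extracranial tumors, the group with the highest mean Mitf. It averaged 0.0688 ± 0.104 CPM in grafts and 2.12 ± 2.18 in Myc tumors, and in SHH tumors it was at 51.2, 0.447 and 1.68 CPM. Sox10 fell against brain in extracranial tumors (adjusted p = 0.00358) and grafts (0.0181).

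The highest SHH value of Sox10, in tumor 1, came with 9492 CPM of summed oligodendrocyte markers, against 86.4 and 210 in the other SHH tumors. Sox10 is made by oligodendrocytes as well as by melanocytes. Pax3, another early melanoblast factor, fell in extracranial tumors (0.112 ± 0.107 CPM against 5.18 ± 4.86 in brain, adjusted p = 0.00244) and averaged 12.6 ± 3.42 CPM in grafts, where it was not called against brain (adjusted p = 0.351). Ednrb, the endothelin receptor of melanoblasts, fell in Myc tumors (16.1 ± 9.47 CPM against 119 ± 16.7) and extracranial tumors (16.0 ± 5.38 CPM). Kit, the melanoblast growth factor receptor, fell in Myc tumors (5.90 ± 2.17 CPM against 82.6 ± 24.7), as did its ligand Kitl (10.5 ± 5.11 against 168 ± 70.6).

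The regulator that rose in all 3 groups was Irf4, which cooperates with Mitf at Tyr in melanocytes and also acts in lymphocytes and macrophages. Irf4 went from 0.167 ± 0.111 CPM in brain to 2.04 ± 2.60 in Myc tumors, 3.28 ± 3.05 in extracranial tumors and 6.16 ± 2.27 in grafts (adjusted p = 0.0276, 0.0140 and 0.00618). Without the 5 libraries the adjusted p was 0.0607, 0.0918 and 0.0259, so that only the graft call remained. Snai2, a factor of migrating neural crest, rose in extracranial tumors, with 32 ± 45.2 CPM against 1.67 ± 1.01. Mc1r, the melanocortin receptor of melanocytes, averaged at most 0.109 CPM in any group. Tfap2a, Lef1 and Asip were not called against brain in any group.

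Other genes that mark the human TYR subtype, 7 in number and drawn from eye field and bone morphogenetic protein genes, were not raised together in any mouse group. Against brain, 0 rose and 0 fell in SHH tumors, 0 rose and 2 fell in Myc tumors, 1 rose and 4 fell in extracranial tumors, and 0 rose and 4 fell in grafts. The shares lower, 28.6%, 57.1% and 57.1% of the 7 in the last 3 groups, stand beside 26.8%, 26.1% and 30.4% of all genes, and the shares higher, 0, 14.3% and 0, beside 25.3%, 26.1% and 24.9%. Without the 5 libraries 0 rose and 3 fell in both extracranial tumors and grafts. Of all genes, 19.4% rose and 20.3% fell in extracranial tumors in that fit, and 22.1% and 29.0% in grafts. Otx2, a homeobox factor of the eye field, choroid plexus and developing brain, was at 33.9 ± 25.3 CPM in brain and 129 ± 61.2 in SHH tumors, a difference that did not pass (adjusted p = 0.343). It fell to 0.0314 ± 0.0240 CPM in Myc tumors, 0.215 ± 0.375 in extracranial tumors and 0.0833 ± 0.135 in grafts.

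Bmp4, a bone morphogenetic protein ligand, was the only 1 of the 7 that rose over brain. It was at 2.98 ± 0.779 CPM in brain and 19.3 ± 19.7 in extracranial tumors (log2 fold change 2.69 ± 0.99, adjusted p = 0.0333), with 1.12, 27.3, 5.34 and 43.2 CPM in the 4 tumors, so that Extracranial tumor 1 lay below the brains. This call was lost without the 5 libraries (adjusted p = 0.0516). Bmp4 was at 0.849 ± 0.486 CPM in grafts and 12 ± 8.7 in Myc tumors, and grafts were lower than both the Myc and extracranial tumors. Lhx2, an eye field factor, fell in Myc tumors, extracranial tumors and grafts, and Pax6 and Six3 in extracranial tumors and grafts, the Six3 calls being lost without the 5 libraries (adjusted p = 0.0955 and 0.0824). Bmp7 reached a mean of 166 ± 331 CPM in extracranial tumors and Six6 a mean of 3.8 ± 7.59 CPM, and neither was called against brain. Both means came from Extracranial tumor 3, which held 663 CPM of Bmp7, against at most 0.448 in the other 3, and 15.2 CPM of Six6, which had 0 counts in the other 3. The 7 genes together summed to 685 CPM in that tumor, above the 189 to 209 CPM of the brains.

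The genes most like each member across the 17 libraries, by Pearson's r of log2(CPM + 1), describe which libraries set each pattern. Tyrp1 was closest to Cnmd (r = 0.95), Ucma (0.93) and Cox8b (0.92). Cnmd and Ucma are cartilage genes and were highest in Healthy brain 1, at 15.0 and 4.92 CPM, with Cnmd at 10.2 CPM in SHH tumor 1. Dct was closest to Tfap2d (0.99), Catsperg2 (0.97) and Cntnap5c (0.97). Tfap2d, a transcription factor of midbrain neurons, was at 1.03, 17 and 35 CPM in the 3 brains and had no counts in the Myc tumors, extracranial tumors and grafts. Mitf was closest to Hadha (0.93), a subunit of mitochondrial fatty acid oxidation, and to Sphk2 (0.92) and Xlr4c (0.92), and Pmel to Atf3 (0.87), a stress-response factor, Tns2 (0.86) and Itm2c (0.85). None of these genes is known as a melanosomal gene.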

How the data were processed

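Polyadenylated RNA of 17 libraries was sequenced from kits that keep strand, per the labels' protocols. The deposited tables hold raw read counts per gene, and the submitters' processing notes name STAR 2.5.3a and mm10. The counting step, its strand setting and the ages of the mice are not given in the sources used here. Gene identifiers were matched to GENCODE M21 (50376 of 50600 without version). Groups follow the titles.

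Counts were fitted in 1 model with edgeR 4.0.16 (R 4.3.3): TMM factors, filterByExpr at its defaults (minimum count 10), robust quasi-likelihood F-tests between group means, and Benjamini-Hochberg adjustment over 21494 genes, with calls at adjusted p under 0.05 and no minimum fold. CPM are counts divided by the TMM-scaled library size. The script was tested on simulated data. A gene with 0 counts in a group is given as a bound at 3 counts over that group. Totals of 18685672 to 130835711 counts set the precision for rare genes, and intervals and bounds cover counting error only. Promoters came from RefSeq's table and letters were matched on both strands.

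The members, the gene lists and the rule for naming genes were chosen with earlier results of these data known. A further gene of the list of other TYR markers is not reported here. The naming rule covered the 6 members, the Mitf family, the lineage regulators, the other TYR markers and 5 genes that check the labels. Of these 5 only Smarcb1, Gli2 and Myc are given. The rule also covered up to 5 genes with the smallest adjusted p per comparison from other lists. For each member whose own mean reached 1 CPM in a group, the 3 genes most like that member were named, whatever their level. Alternatives were RLE size factors, 2 other count filters, DESeq2 1.42.0, limma voom 3.58.1, only the compared groups, a replicate block, 2 or 5 libraries left out, libraries of 1 file number series, and omission of every library singly.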

Additional observations from a re-analysis of the deposited data

Results flagged for a closer look

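In the groups of 4 libraries, a library was set aside for a closer look where its distance to the nearest other library exceeded Dixon's 95% critical value (0.829) as a share of the group's range. For normally distributed values chance does this in about 1 in 20 groups. That rate does not hold for genes with few counts, where a single read is flagged whenever the other libraries have none. Here 4 of 10 such groups were flagged, and those of Tyr, Tyrp1 and Dct rest on few counts. The number flagged therefore cannot be set against the chance rate. Groups of 3 could not be examined in this way.

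For Tyr, Extracranial tumor 2 stood at 0.156 CPM (8 counts) while the other extracranial tumors had 1 count each. For Tyrp1, Extracranial tumor 1 stood at 0.0488 CPM, which is a single count against 0 in the other 3. For Dct, Myc tumor 4 stood at 0.149 CPM (10 counts), with 2, 0 and 0 counts in the other Myc tumors.

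Mitf showed the pattern in the other direction: Myc tumor 2 stood at 3.02 CPM, within the range of the healthy brains, while the other Myc tumors lay between 10.3 and 11 CPM. Its total of 20594147 counts was close to the 18685672 of Myc tumor 1. Without Myc tumor 2, Mitf passed the test in Myc tumors against brain (log2 fold change 1.81, adjusted p = 0.0499).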

How the results depend on the processing

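Of 917 values of single genes under the alternatives, 825 kept their direction and side of the threshold, 53 lost a call, 28 gained one and 11 turned sign, none of the last called in either fit. The number of the 6 genes called in either direction moved as follows. With limma voom it was 2 for SHH tumors against brain, 4 for Myc tumors against brain, 0 for Myc against SHH tumors and 1 for grafts against Myc tumors. With a minimum count of 50, which leaves Tyrp1 and Dct untested, it was 0 for Myc tumors, 1 for extracranial tumors and 2 for grafts against brain, 0 for Myc against SHH tumors and 1 for grafts against SHH tumors. With DESeq2 it was 3 for extracranial against SHH tumors and 1 for extracranial against Myc tumors. With only the compared groups it was 0 for Myc and 0 for extracranial tumors against SHH tumors, 1 for grafts against SHH tumors and 1 for grafts against Myc tumors. Without 2 libraries it was 0 for Myc and 1 for grafts against SHH tumors, and without 5 libraries 0 for Myc against SHH tumors. With every gene kept it was 1 for grafts against SHH tumors. Within 1 file number series it was 1 for Myc tumors against brain and 0 for Myc against SHH tumors. Where no value is shown to set the change, the cause was not tested.

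When each library was left out in turn, the number called ranged from 1 to 3 for Myc tumors, 2 to 3 for extracranial tumors and 3 to 4 for grafts against brain. It ranged from 0 to 1 for Myc, 0 to 2 for extracranial tumors and 0 to 3 for grafts against SHH tumors, and was 0 throughout for the other 4 comparisons.

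The signs that turned were these, as log2 fold changes. Tyrp1 in SHH tumors against brain was 0.997 without Healthy brain 1 and -5.011 at the other extreme of leaving out 1 library. Dct in Myc against SHH tumors was 0.753 with limma voom, 0.633 without 2 libraries, 0.855 without 5 and 0.636 without SHH tumor 1 (lowest -3.782), and Mitf there was -0.095 without SHH tumor 2 (highest 1.271). Pmel in SHH tumors against brain was -0.005 without Healthy brain 2 and -0.061 without SHH tumor 1 (highest 0.782). Mitf in grafts against extracranial tumors was 0.615 with limma voom, 0.641 with the block and 0.672 without Extracranial tumor 4 (lowest -0.576).

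The labels do not say whether equal replicate numbers pair libraries across groups. Over 31 same-numbered pairs r ran from -0.167 to 0.166, 2 exceeded 0.1, and 6 of 17 libraries correlated best with their own number. No chance rate was set beside these values, so they show no clear pairing by number but cannot exclude one. With the number as a replicate block the count of members called was 3 for grafts against brain (4 without it) and 2 for grafts against SHH tumors (3 without it), and the same in the other 8 comparisons, although in extracranial against SHH tumors Mitf lost its call (adjusted p = 0.0548) and Tyrp1 gained one (0.0170). The tests with few counts, Tyr and Mlana above all, are limited by depth.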
